A study of Mus musculus with 4 samples.

Results

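Stretches of the mouse genome where CpGs lie close together are mostly free of DNA methylation, and the clusters described here are the minority that sat between 20% and 80%. CpGs with at least 10 reads in every library were joined into clusters of at least 3 neighbours no more than 100 bp apart. A cluster was kept when it lay on an autosome, when on average at least 12 CpGs were listed within 100 bp either side of its CpGs, and when the summed reads of the 0Div and 1Div libraries were at least 20% and under 80% methylated. The clusters were thus selected on measured methylation in 0Div and 1Div. This gave 950 clusters of 99566 in all, or 4.82% of the 19703 autosomal CpG-dense clusters; 17570 of the others were under 20% and 1183 were at or over 80%. Because the 0Div and 1Div values chose the clusters, every value of those libraries is given as a description. The comparison of >3Div with control used neither of them.

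The cells were secondary, inducible mouse embryonic fibroblasts (MEFs) from a 129/SvJ x C57/B6 hybrid, in which doxycycline switches on the reprogramming factors. There were 4 groups, measured with 1 library each: control MEFs without induction, and MEFs given doxycycline for 96 hours that had passed through an average of 0 divisions (0Div), 1 division (1Div) or more than 3 divisions (>3Div, which another label gives as 3 or more). The labels name growth medium with 10% serum, doxycycline medium with 15% serum and starvation medium with 0.5% serum, and do not tie the last to a cohort. With 1 library per group, the tests below compare those libraries and not the conditions, and the precision is at most that of read counting. Reads given for a cluster are summed over its CpGs, so a read that covers several CpGs counts once at each. The intervals and p-values treat these counts as independent and are too narrow even for counting error. Of 18 fibroblast genes listed for the check of cell type, 4 had a matched promoter and no cluster lay within 5 kb of these, so these clusters do not bear on that label.

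Methylation of cytosine in CpG pairs is copied to the new strand after DNA replication by the maintenance methyltransferase Dnmt1, and CpG islands at promoters are usually kept free of it. An intermediate level can arise where the maternal and the paternal copy differ, as in imprinting control regions, where cells differ from each other, or where a fully methylated and an unmethylated stretch adjoin. Germline genes with CpG-rich promoters and some transposable elements are known for methylated CpG-dense sequence in somatic cells. Bulk reads do not separate these cases.

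The promoters that the results below turn on are shown with the CpGs of the described cluster in capitals, read 5′ to 3′ on the strand of the gene from RefSeq windows of 300 bases, 250 before and 50 after the gene's start. Mcts2 and Plagl1 are imprinted genes with lower methylation in >3Div. Igf2r is an imprinted gene with a change along part of its cluster. Hormad2 encodes a meiotic chromosome protein and was lower in >3Div, and Agbl2, which encodes a tubulin carboxypeptidase, was higher. On GRCm38.p6 the windows are chr2:152686898-152687197 on the plus strand for Mcts2, chr10:13090582-13090881 on the plus strand for Plagl1, chr17:12769657-12769956 on the minus strand for Igf2r, chr11:4441033-4441332 on the minus strand for Hormad2 and chr2:90782988-90783287 on the plus strand for Agbl2.
Mcts2: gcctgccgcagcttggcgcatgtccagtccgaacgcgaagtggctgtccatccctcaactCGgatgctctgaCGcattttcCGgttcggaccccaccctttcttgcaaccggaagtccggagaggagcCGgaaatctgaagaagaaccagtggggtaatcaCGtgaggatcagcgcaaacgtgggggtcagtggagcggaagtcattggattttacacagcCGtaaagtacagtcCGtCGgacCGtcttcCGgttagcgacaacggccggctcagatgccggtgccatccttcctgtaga
Plagl1: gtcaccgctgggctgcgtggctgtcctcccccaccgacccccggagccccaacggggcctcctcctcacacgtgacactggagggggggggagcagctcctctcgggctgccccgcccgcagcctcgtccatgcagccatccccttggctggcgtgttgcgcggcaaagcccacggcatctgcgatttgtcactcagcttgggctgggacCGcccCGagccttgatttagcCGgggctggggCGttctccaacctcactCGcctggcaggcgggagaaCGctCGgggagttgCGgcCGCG
Igf2r: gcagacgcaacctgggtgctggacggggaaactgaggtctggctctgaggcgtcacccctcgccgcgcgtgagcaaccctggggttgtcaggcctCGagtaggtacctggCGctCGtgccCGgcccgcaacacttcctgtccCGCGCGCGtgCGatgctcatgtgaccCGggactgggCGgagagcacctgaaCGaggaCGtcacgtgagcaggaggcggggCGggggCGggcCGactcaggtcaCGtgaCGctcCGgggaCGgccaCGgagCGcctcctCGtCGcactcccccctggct
Hormad2: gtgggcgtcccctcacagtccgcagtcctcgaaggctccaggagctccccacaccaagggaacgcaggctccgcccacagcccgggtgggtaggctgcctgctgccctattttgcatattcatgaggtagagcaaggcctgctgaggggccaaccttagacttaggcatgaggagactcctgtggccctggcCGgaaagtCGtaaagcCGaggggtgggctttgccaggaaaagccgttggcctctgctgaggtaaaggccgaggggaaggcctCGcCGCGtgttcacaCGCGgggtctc
Agbl2: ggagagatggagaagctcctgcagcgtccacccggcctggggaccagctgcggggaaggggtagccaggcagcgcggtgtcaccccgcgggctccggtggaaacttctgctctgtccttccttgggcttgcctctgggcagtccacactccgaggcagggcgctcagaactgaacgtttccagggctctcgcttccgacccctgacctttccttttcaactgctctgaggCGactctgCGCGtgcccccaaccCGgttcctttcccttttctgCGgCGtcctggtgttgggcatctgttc

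The 950 clusters held 13889 CpGs. The median cluster had 13 CpGs over 164 bp, with 14.2 CpGs per window, and the largest had 103 CpGs. The median cluster held 764 reads in >3Div (range 32 to 12675), against 820 in control (43 to 34385), summed over its CpGs. The libraries as a whole held between 84606824 and 94775128 reads at listed CpGs, and 26.0% of those reads were methylated in >3Div, against 44.4% in control. These shares are weighted by reads, and the reads were spread differently. The median ratio of >3Div to control reads was 1.65 over CpG-dense clusters under 20% and 0.841 over partly methylated clusters of intermediate density. Over all clusters the median difference in level was -1.28 points.

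The clusters' median methylation was 41.3% in control, 40.9% in 0Div, 41.8% in 1Div and 30.9% in >3Div. Levels in control went closely with those in 0Div and 1Div. Across the 950 clusters, control levels had a Pearson correlation of 0.961 with 0Div and 0.974 with 1Div, and of 0.738 with >3Div. These correlations are descriptions over clusters that share libraries and, for 0Div and 1Div, were used in the choice. A difference of at least 10 percentage points from control was seen at 26 clusters downward and 37 upward in 0Div, and at 14 downward and 15 upward in 1Div, with no test; over all clusters the shares past that size were 1.52% downward and 1.49% upward in 0Div, and 1.18% downward and 1.54% upward in 1Div. In >3Div 192 of the 950 clusters lay under 20%, against 55 in control, and 744 lay between 20% and 80%, against 880 in control.

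Between >3Div and control, 288 clusters (30.3%) fell and 28 (2.95%) rose, and 634 did not pass. A cluster passed at an adjusted p under 0.05 in a two-sided Fisher's exact test of its summed methylated and unmethylated reads, adjusted by Benjamini-Hochberg over all 99566 clusters, with a difference of at least 10 points. Over all clusters 11.0% fell and 0.577% rose by the same rule. That background is mostly clusters under 20% or over 80%; among the autosomal clusters that lay between 20% and 80% in control, 27.2% fell and 2.02% rose. Partly methylated clusters of intermediate density fell at 28.5% and CpG-poor ones at 27.4%, so the share of CpG-dense clusters that fell was near that of other partly methylated sequence. The median difference of the 950 clusters was -4.99 points (quartiles -12.3 and 0.532), against -6.06 at intermediate density and -6.99 in CpG-poor clusters. The median was negative on each of the 19 autosomes. Falls of at least 20 points were called at 147 clusters and falls of at least 30 points at 98, while rises of at least 20 points were called at 5.

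**Figure D1:**
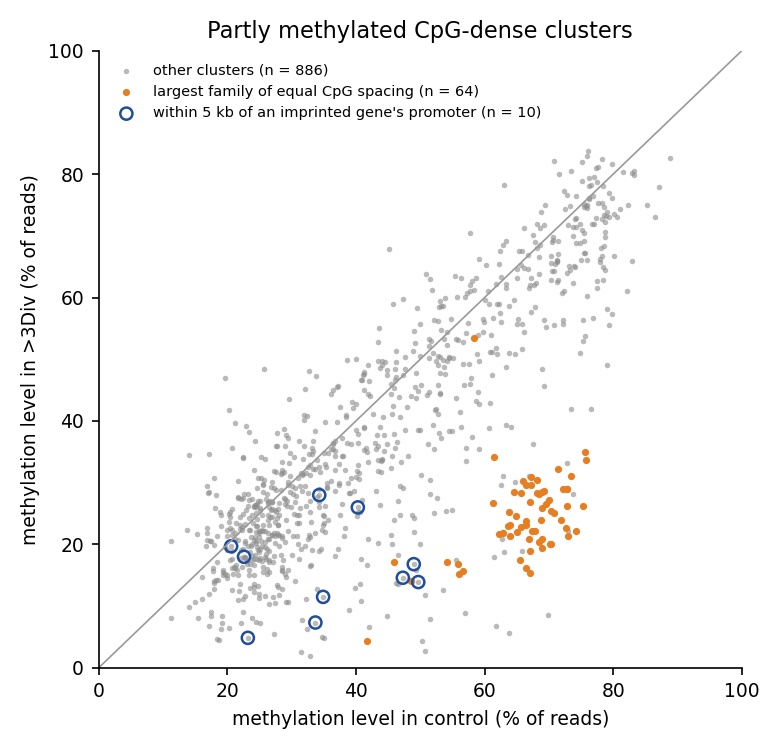
Methylation level of each of the 950 clusters in >3Div (vertical axis, % of reads) against control (horizontal axis, % of reads), with 1 point per cluster and the line of equal levels. The 64 orange clusters are the largest family joined by shared runs of CpG spacing, at a median of 23.9% in >3Div and 67.3% in control. Of these, 63 were called lower and 1 was not. Blue rings mark the 10 clusters within 5 kb of an imprinted gene's matched promoter.

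**Figure D2:**
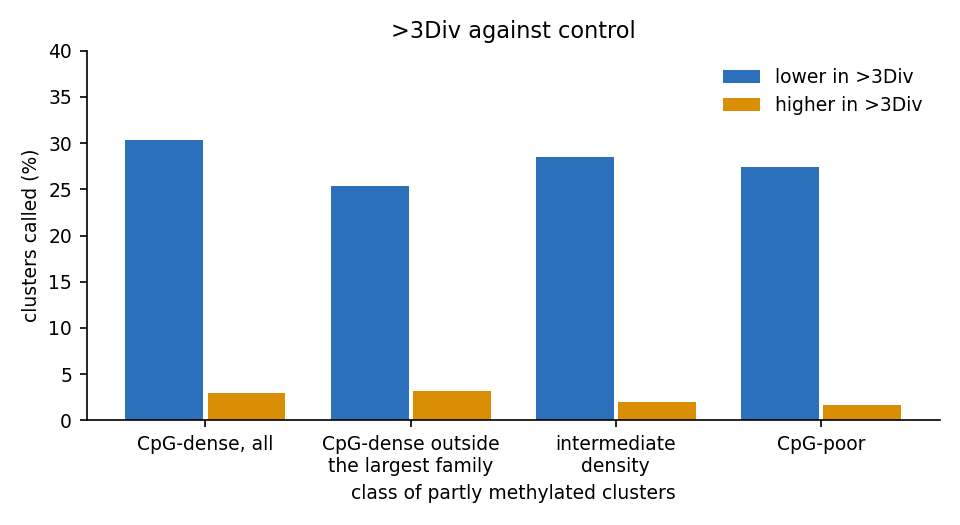
Share of partly methylated clusters called lower (blue) or higher (yellow) in >3Div than in control, by CpG density. CpG-dense clusters stood at 30.3% lower, and at 25.4% without the largest family of equal spacing, against 28.5% at intermediate density and 27.4% in CpG-poor clusters.

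Depth moved with the result, and its part in the result was not tested. The ratio of reads in >3Div to reads in control had a median of 1.05 over the 950 clusters, 1.65 over CpG-dense clusters under 20% and 0.973 over those at or over 80%. Among the 195 clusters with a ratio under 0.67, 56.9% fell; among the 140 with a ratio over 1.5, 12.1% fell. With every CpG thinned to the lowest of its 4 coverages, 270 clusters fell and 23 rose. These included 250 of the 288 falls and 20 of the 28 rises, and the rest were new calls. When each CpG counted equally, whatever its reads, 45 of the 288 falls and 5 of the 28 rises were under 10 points.

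The largest falls came mainly from a repeated sequence. Among the 10 clusters with the largest falls, 6 belonged to a family joined by runs of equal distances between neighbouring CpGs. Clusters were joined into a family through shared runs of 8 CpGs with identical spacing in either direction, so not every pair need share the same run. A cluster of fewer than 8 CpGs could not join a family and is counted outside whatever its sequence. The family and the run length were chosen after the values were seen, and 4 run lengths were tried. Runs of 7 and of 8 CpGs gave the same count, 65 clusters of which 64 are among the 950, and runs of 9 gave 62 clusters of which 61 are. Runs of 7 also chained 4974 other clusters, 134 of them among the 950, with a median difference of -5.38 points. Runs of 6 chained 20128 clusters into 1 group with 523 of the 950 and a median difference of -5.35 points, which did not set the family apart. A first look had counted clusters that share shorter runs and is not used. No test is given for the family. The deposited tables hold no annotation of repeats, and the family is named here only by its spacing.

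The 64 clusters lay on 18 of the 19 autosomes, and those on the same chromosome were at least 751031 bp apart. The 65th copy, on chromosome X, lay outside the choice only because of its chromosome, at 22.7% in >3Div and 64.4% in control. The family's median level was 67.3% in control, 67.0% in 0Div, 69.4% in 1Div and 23.9% in >3Div. Levels ran between 4.35% and 53.5% in >3Div, against 41.7% and 75.8% in control, and apart from the copy at 53.5% every level in >3Div lay below the lowest in control. The median difference was -42.4 points, 63 of the 64 clusters fell, and 62 were lower at every CpG. The exception, a copy with 4597 reads in >3Div and 4270 in control at chr10:8270158-8270311, had 53.5% in >3Div and 58.3% in control. Copies of a repeat share sequence and are not independent, and reads can be placed on the wrong copy.

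The largest fall in the family was at chr8:87655357-87655520, with 17 CpGs. Its level was 22.2% in >3Div (Wilson 95% interval 18.8 to 26.2, 481 reads), against 74.2% in control (71.5 to 76.7, 1112 reads), 71.7% in 0Div and 75.1% in 1Div. Reads moved with the family's fall, and their part in it was not tested: the median copy had 0.50 times as many reads in >3Div as in control, with 0.18 times the methylated and 1.18 times the unmethylated reads. The ratio of all reads ran from 0.346 to 1.08 and was under 1 in 62 of the 64 copies. The median ratio of methylated reads was 0.957 over CpG-dense clusters at or over 80%, and 0.750 over all autosomal clusters. It was 0.702 over partly methylated clusters of intermediate density and 0.683 over CpG-poor ones. For clusters outside the family at 60% to 75% in the pooled 0Div and 1Div reads, the median ratio of all reads was 0.740. In the 22 copies with exactly the same 17 CpGs, the median per CpG ran between 4.88% and 33.3% in >3Div, against 56.2% and 73.4% in control. At like starting levels outside the family the difference was smaller: of clusters at 60% to 75% in the pooled 0Div and 1Div reads, all 55 family copies fell with a median of -43.0 points, and 38 of the other 133 fell with a median of -5.31 points.

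**Figure D3:**
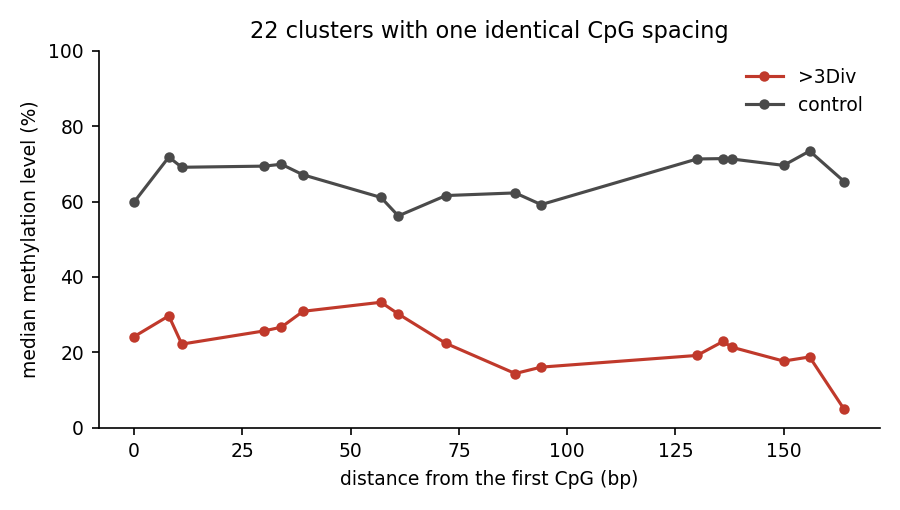
Median methylation level (%) of each of 17 CpGs over the 22 clusters with 1 identical CpG spacing, by distance from the first CpG (bp). The >3Div line (red) lies between 4.88% and 33.3%, under the control line (grey) at every CpG.

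**Figure D4:**
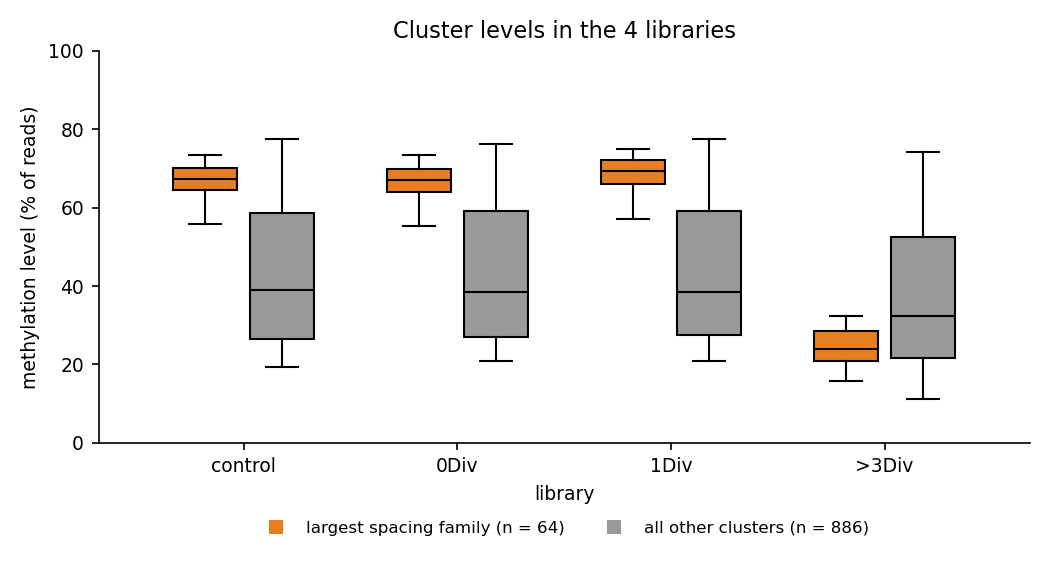
Methylation levels (% of reads) in the 4 libraries for the 64 clusters of the largest spacing family (orange) and the other 886 (grey); the box spans the quartiles with the median as a line, and whiskers reach the 5th and 95th percentiles. The family sits at a median of 67.3%, 67.0% and 69.4% in control, 0Div and 1Div and at 23.9% in >3Div, while the other clusters lie at 39.0%, 38.6%, 38.3% and 32.2%.

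Without the family, 225 of 886 clusters (25.4%) fell and 28 rose, with a median difference of -4.39 points. In all, 178 of the 950 clusters shared a spacing with another cluster, in 47 families. Other families differed in size of change. A family of 27 clusters on chromosome 12 was at a median of 19.7% in >3Div and 24.3% in control, and 6 fell. A family of 11 on chromosome 6 was at 49.8% in >3Div and 52.8% in control, and none of its clusters passed the test and the minimum of 10 points. A family of 4 was at 18.3% in >3Div and 37.5% in control, and all 4 fell.

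Outside the repeated sequence, a group of falls lay at imprinted genes, where methylation differs between the parental copies. Genes were assigned through promoters: a promoter was placed where its CpGs have the same spacing as the listed CpGs. Within 5 kb of a matched promoter of a gene listed for maternal methylation lay 10 clusters, of which 7 fell, none rose and 3 did not pass, with a median difference of -20.9 points. The same count over all 950 clusters is 288 falls with a median of -4.99. The 10 clusters belong to 4 genes: 5 lie at Gnas and all fell, 3 at Igf2r and none passed, and Mcts2 and Plagl1 have 1 each, so the count rests largely on Gnas. The list is of genes, so a cluster near a listed promoter need not be maternally methylated. The Igf2r promoter is methylated on the paternal copy, and Gnas has promoters of both kinds. Of the 33 listed genes 9 had a matched promoter. For the separate list of 7 genes with paternal methylation, 2 had a matched promoter and no cluster lay within 5 kb of it.

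Mcts2 is a retrogene in an intron of H13 whose promoter is methylated on the maternal copy. Its cluster at chr2:152512579-152512883, with 16 CpGs, was at 49.0% in control, 48.5% in 0Div, 49.6% in 1Div and 16.8% in >3Div. The interval was 15.3 to 18.5 in >3Div (2184 reads) and 46.6 to 51.5 in control (1599 reads), and the Fisher's exact test gave an adjusted p of 3.45e-97. At 182 bp and 215 bp into the cluster the level was 1.48% and 1.49% in >3Div, against 44.4% and 43.7% in control. All 16 CpGs were between 20% and 80% in control, and 15 were lower in >3Div; the first, with 19 reads in >3Div, was higher.

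Gnas, which encodes a G protein alpha subunit and has both maternally and paternally methylated promoters, had 8 clusters nearest to its matched promoters over 44.1 kb (chr2:174110189-174154271). All 8 fell. Their levels ran from 4.86% to 38.1% in >3Div with a median of 14.2%, against 23.2% to 62.7% in control with a median of 45.5%; the median was 43.8% in 0Div and 42.4% in 1Div. Of the 8, 5 lay within 5 kb of a promoter and 3 were 15266 to 16077 bp away. The cluster 320 bp from a promoter, with 18 CpGs, was at 13.9% in >3Div (interval 11.8 to 16.2) and 49.7% in control (46.8 to 52.6), and all 18 CpGs were lower.

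Plagl1, which encodes a zinc finger transcription factor, shares its imprinted promoter with the noncoding RNA Hymai. The cluster there, chr10:12810597-12810993 with 34 CpGs, was at 40.3% in control, 37.8% in 0Div, 35.4% in 1Div and 26.0% in >3Div. The interval was 24.6 to 27.4 in >3Div and 38.3 to 42.3 in control, with an adjusted p of 5.98e-29 by the Fisher's exact test. The difference of -14.3 points was smaller than at Mcts2, and 28 of the 34 CpGs were lower.

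Igf2r encodes the receptor that clears insulin-like growth factor 2, and its promoter is methylated on the silent paternal copy in mouse; it stands on the list for a maternally methylated region in an intron. The cluster at its promoter, chr17:12962537-12962725 with 24 CpGs, was at 34.3% in control, 28.3% in 0Div, 32.3% in 1Div and 28.0% in >3Div, and its difference of -6.29 points missed the minimum of 10. The change lay along part of it. The 15 CpGs before 131 bp were at 30.9% in >3Div (1723 reads) and 35.1% in control (931 reads). The 9 CpGs from 131 to 188 bp were at 0.556% in >3Div (180 reads), against 31.8% in control (314 reads), 31.8% in 0Div and 37.1% in 1Div. The boundary was chosen after the values were seen, and those CpGs had 13 to 30 reads each in >3Div. When each CpG counted equally, the cluster fell by 13.2 points, past the minimum of 10, with the p-value still that of the summed reads. The other 2 clusters near the promoter were at 18.0% and 19.7% in >3Div, against 22.6% and 20.6% in control, and did not pass.

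**Figure D5:**
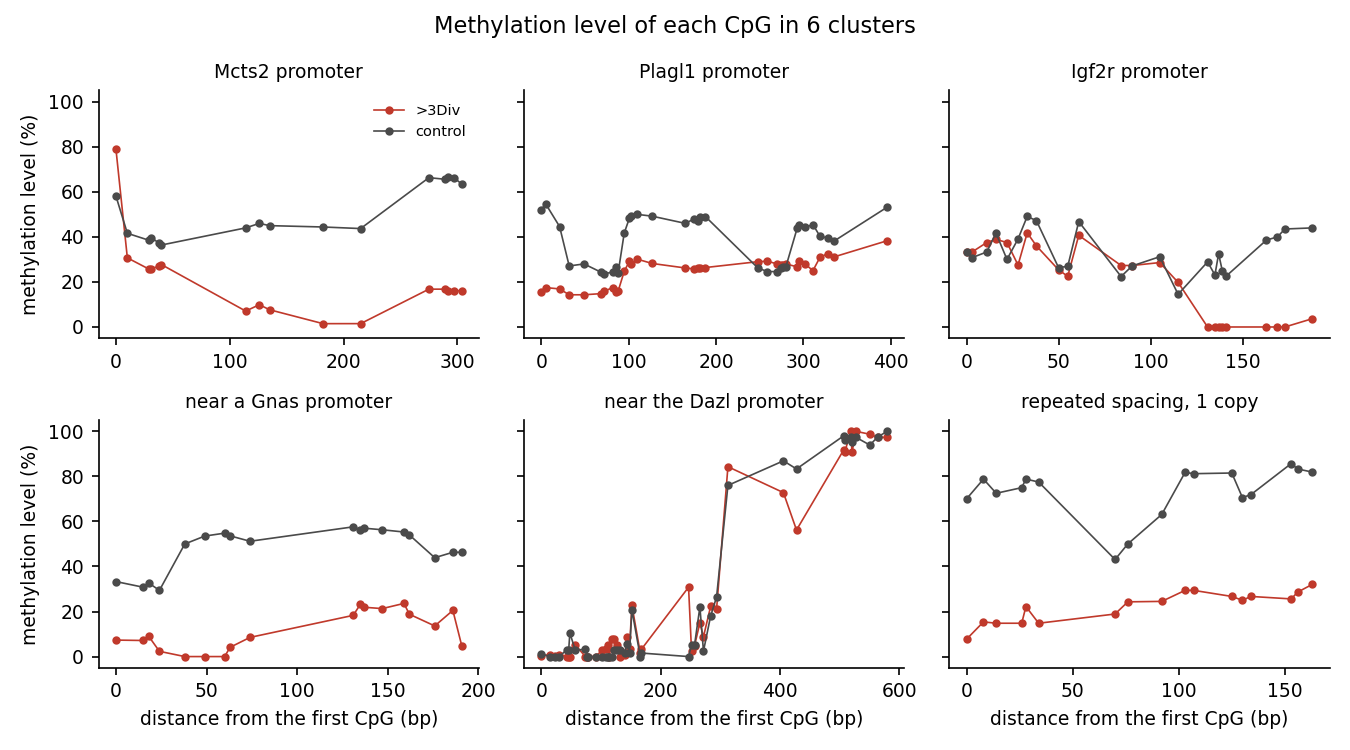
Methylation level (%) of each CpG by distance from the first CpG of 6 clusters (bp), with >3Div in red and control in grey. At Mcts2, Gnas and the repeated copy the >3Div levels lie under control along nearly the whole cluster. At Igf2r the last 9 CpGs lie at 0% to 3.70% in >3Div. Beside Dazl both lines climb along the cluster, with differences at single CpGs. The CpG at 428 bp was at 56.2% in >3Div (16 reads) and 83.3% in control (36 reads), with 66.7% in 0Div and 57.1% in 1Div.

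Germline genes, which are silenced by methylation of CpG-rich promoters in many somatic cells, had 3 clusters within 5 kb of a matched promoter, and 10 of the 30 listed genes had such a promoter. Of the 3 clusters, 1 passed. At the promoter of Ddx4, an RNA helicase of germ cells, the cluster of 17 CpGs was at 66.6% in >3Div (725 reads) and 68.4% in control (832 reads), a difference that did not pass. The cluster 144 bp from the promoter of Tdrd1, a component of the piRNA pathway, was higher by 8.37 points in >3Div, from a control level of 71.6%, and did not pass. The call was at Dazl, an RNA-binding protein of germ cells: its cluster of 44 CpGs, 156 bp from the promoter, was at 16.7% in >3Div and 41.8% in control by summed reads, and differed by 0.0376 points when each CpG counted equally. The 10 CpGs at or over 80% in control had 425 reads in >3Div, against 1135 in control, and were at 88.5% in >3Div and 95.5% in control. The 30 CpGs under 20% had 2712 reads in >3Div, against 1531 in control, and were at 3.87% in >3Div and 2.61% in control. The summed difference at Dazl thus went with a shift of reads from highly to weakly methylated CpGs of the cluster. Hormad2 was not on the list and is named because its cluster passed. The 11 CpGs at its promoter (chr11:4341019-4341141) were at 35.5% in >3Div (interval 31.3 to 39.8) and 59.2% in control (55.9 to 62.5), and all 11 were lower. Other unlisted promoters, among them those of the germ-cell genes Boll and Meioc, overlapped clusters that did not pass.

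Of 6 clusters within 5 kb of a Hox promoter, 3 fell, against 30.3% of the 950; 10 of the 39 listed genes had a matched promoter. Hox genes encode transcription factors that give position along the body axis. The cluster 258 bp from Hoxd12 was at 11.5% in >3Div and 27.1% in control, and the cluster of 47 CpGs 238 bp from Hoxa5 was at 21.5% in >3Div and 32.7% in control. Near Hoxd10 the level was 6.34% in >3Div and 19.1% in control. The clusters on the promoters of Hoxd9 (26.8% in >3Div, 26.9% in control) and Hoxa6 (30.1% in >3Div, 29.4% in control) did not pass, nor did the third, 860 bp from Hoxd9. Of 8 clusters at other developmental regulators (20 of 55 genes matched), 1 fell, on the promoter of Tbx1, a T-box factor of the pharyngeal arches, at 54.4% in >3Div and 66.1% in control; with equal weight per CpG its fall of 9.96 points was under the minimum. The clusters near En1, Gata3, Foxa2, Irx2 and Irx3 did not pass. The listed pluripotency genes, of which 3 of 22 were matched, had 1 cluster, which fell, 2150 bp from the promoter of the reprogramming factor Klf4, at 10.4% in >3Div and 26.5% in control.

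In all, 69 clusters overlapped the matched promoters of 73 genes: 16 fell, 3 rose and 50 did not pass. The share that fell, 23.2%, was below the 30.3% of all 950 and near the 25.4% outside the largest family. The genes named next were chosen because their clusters passed. The cluster of 59 CpGs at Cdv3 was at 10.7% in >3Div and 29.1% in control, that at Parg and Timm23, which encode a poly(ADP-ribose) glycohydrolase and a mitochondrial import protein, at 5.44% in >3Div and 27.2% in control, and that at Rnf26, a RING finger protein, at 7.33% in >3Div and 22.2% in control. Each of these 3 clusters shares a CpG spacing with another cluster, so reads from a copy cannot be told apart here. They were also mixed inside: at Parg and Timm23 the 15 CpGs between 20% and 80% in control were at 13.4% in >3Div and 50.2% in control, beside 16 CpGs at 0.233% in >3Div and 0.522% in control. Smaller falls were called at Cyp2r1, a vitamin D 25-hydroxylase (22.4% in >3Div, 34.7% in control), at Rcor2, a corepressor (12.3% in >3Div, 24.2% in control), at Papolb, a testis poly(A) polymerase (51.0% in >3Div, 63.8% in control), and at Alpk3, a kinase of heart muscle (33.8% in >3Div, 44.1% in control). With equal weight per CpG the difference was -6.89 points at Papolb, -8.47 at Alpk3 and -7.45 at Rnf26, each under the minimum. At equal depth Papolb differed by -3.86 points and did not pass, and Alpk3 did not pass after reads were divided by the overdispersion of all clusters.

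Rises were called at 28 clusters. At the promoter of Agbl2 (chr2:90623374-90623420, 6 CpGs) the level was 20.2% in control, 20.1% in 0Div, 24.8% in 1Div and 41.8% in >3Div, with an interval of 39.0 to 44.6 in >3Div and 17.4 to 23.4 in control. The largest rise, at a cluster of 3 CpGs 458 bp from the promoter of Lin7b, a scaffold protein of cell junctions, was 46.9% in >3Div (228 reads) against 19.6% in control (168 reads); its 0Div level was 36.1% and its 1Div level 27.3%. A cluster 203 bp from the promoter of Marveld2, a tight junction protein, was at 67.8% in >3Div and 45.2% in control. A separate cluster on the Marveld2 promoter itself did not pass. The rise at the promoter of the noncoding gene 4930412O13Rik, at 63.9% in >3Div and 50.9% in control, came to 0.248 points when every CpG counted equally.

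The largest single fall was outside the family, at chr5:133950988-133951022, where 5 CpGs were at 8.62% in >3Div (interval 5.29 to 13.7, 174 reads) and 69.9% in control (64.9 to 74.5, 349 reads), with 72.1% in 0Div and 78.8% in 1Div. Its neighbour at chr5:133951127-133951149 was at 6.84% in >3Div and 61.8% in control. A cluster of 4 CpGs at chr1:129935280-129935302 was at 5.67% in >3Div and 63.8% in control. These clusters have fewer than 8 CpGs, so none could join a family by the rule, and whether they are repeats was not tested. Of the 5 clusters with the most CpGs, 61 to 103, 1 fell, at 28.4% in >3Div and 39.0% in control (with equal weight per CpG the difference was -6.97 points, and at equal depth -9.47). The other 4 differed by -8.29, -6.24, -2.59 and 3.60 points and did not pass; the cluster of 96 CpGs at chr5:23980061-23981092 was at 43.0% in >3Div and 39.4% in control.

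The inside of the clusters divided them further. In 156 clusters every CpG lay between 20% and 80% in control, and 60.3% of these fell, with a median of -16.0 points; outside the largest family the share was 52.7% of 129 with a median of -11.5. The split uses the control levels that enter the difference and leaves out clusters with CpGs near 0%, which have little room to fall. It is a description, and the median was 8 CpGs in these 156 clusters, against 13 in all 950. In 130 clusters CpGs under 20% and CpGs at or over 80% stood side by side, and 26.2% of these fell, with a median of -4.50 points. Flanks (1 kb either side) were scored only where both held at least 5 covered CpGs, which left 178 clusters. Of these, 61 had at least 50% methylation in control on both flanks. Copies of the family made up 30 of the 61 and all 30 fell, with a median of -42.4 points. Of the other 31, 6 fell and the median was -0.707. Outside the largest family the share that fell was 27.4% at a density of 12 to under 15, 22.3% at 15 to under 20 and 24.0% at 20 and over.

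Levels near the edges of the choice show how the groups join. Among clusters with at least 200 pooled reads, the 3 nearest above the 20% limit had 20.01% to 20.05% in the pooled 0Div and 1Div reads, and were at 8.40% to 20.5% in >3Div and 16.7% to 17.4% in control. The 3 nearest below it had 19.86% to 19.88%, with 10.6% to 11.6% in >3Div and 13.6% to 14.7% in control. At the 80% limit, the 3 clusters inside were at 66.7% to 80.4% in >3Div and 78.2% to 81.6% in control, and the 3 outside at 73.1% to 81.6% in >3Div and 78.9% to 81.8% in control.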

How the data were processed

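For each of 4 libraries, RRBS DNA was cut with MspI, size-selected to 40 to 220 bp and treated with bisulfite, per the labels' protocols. The authors deposited, per CpG, a position and a pair of read counts, a form other than a plain count column; the build is mm9, per the submitters' processing notes; for the aligner, the methylation caller and duplicate handling the entry is "not given in the sources used here". The deposited files have no header; the first number was taken as methylated because it is 0 at 62.3% of CpG-dense CpGs in control. Positions are printed as deposited; on 7 chromosomes promoter matches lie 1 base off, as for positions counted from 0.

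Clusters, levels (summed methylated reads over all reads), Wilson 95% intervals and Fisher's exact tests were computed with Python 3.11.15, numpy 2.4.6, scipy 1.17.1 and numba 0.67.0; the test code was checked on simulated data. Intervals cover counting error at most, since reads without molecular identifiers are not independent molecules and 1 read counts at each CpG it covers. RefSeq promoters (GRCm38.p6) with at least 8 matched CpGs were placed by CpG spacing alone: 9167 windows of 8138 genes, with 99.9% of unique matches on the same chromosome. The nearest matched promoter need not be the nearest gene, and the 5 kb limit was chosen after values were seen.

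Named clusters were the 10 largest falls and rises with at least 100 reads, the 5 with most CpGs, those nearest the limits (at least 200 reads) and those near a listed gene; called promoter clusters, families and stretches were added after values were seen. The clusters and lists were chosen with earlier results of these data known. The 59 listed protocadherin genes were not analysed here.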

Additional observations from a re-analysis of the deposited data

How the results depend on the processing

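No paired analysis was possible because each group has 1 library. Counts are clusters that fell, then rose, of the clusters found. A minimum of 20 points gave 147 and 5. Subtracting the median difference of clusters of like density and control level gave 191 and 67 with a median of 0.0305 points, and of like control level at any density 182 and 71 with a median of 0.294 points, so the median turned. The first of these 2 medians is near 0 by construction, since 880 of the 950 are among the 947 dense clusters at 20% to 80% in control that set it. Dividing reads by the overdispersion between control and 1Div over all clusters (1.68) gave 267 and 22, and over the 950 (3.39) gave 196 and 10. A gap of 50 bp gave 417 and 58 of 1468, and of 200 bp 210 and 15 of 686. A density of at least 10 gave 502 and 48 of 1712, and of at least 15 gave 90 and 11 of 391. A band of 30% to 70% gave 188 and 12 of 515. Without clusters that share a spacing 181 of 772 fell. The alternatives on the overdispersion of the 950, on like control level at any density and on spacing were chosen after seeing the data. Coverage minimums of 5 and 20 reads, equal depth, equal weight per CpG and leaving out very deep CpGs kept both counts within 1.5 times the main ones. Over 68 named clusters and 3 alternatives, 22 values of called clusters no longer passed and 2 others newly passed. Equal weight per CpG changed only the difference, and kept the p-value of the summed reads. The difference of a called cluster turned at 2: beside Dazl to 0.0376 with equal weight per CpG, and at 4930412O13Rik to -0.368 at equal depth. Among named clusters that did not pass, it turned at 5, with main differences of up to 5.54 points; near En1 it was -3.42 and 0.246, and near Irx3 -5.54 and 0.988, with equal weight second. The cause was not tested. Libraries with 1 replicate per group limit every value to counting error at best, and clusters of 32 summed reads resolve only large differences.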
